A study of Mus musculus with 6 samples.

Results

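The genes described here are 10 genes of transforming growth factor beta (TGF-beta) signalling: the ligand genes Tgfb1, Tgfb2 and Tgfb3, the receptor genes Tgfbr1, Tgfbr2 and Tgfbr3, the feedback genes Smad7, Skil and Pmepa1, and the TGF-beta induced matrix gene Tgfbi. They were taken by symbol, and all 10 were found among the 48368 gene symbols of the count tables. The 6 RNA libraries come from cultured fibroblasts (cancer-associated fibroblasts) that had been separated by differential centrifugation from digested mammary tumours of MMTV-PyMT mice. In these mice the mouse mammary tumour virus promoter drives the polyoma middle T oncogene in mammary epithelium, a transgene that both groups of mice carried. A set of 3 libraries was labelled heterozygous for Hic-5 (Hic-5+/-, HET) and 3 were labelled knockout (Hic-5-/-, KO). The cells were grown in medium with serum, and no ligand, inhibitor or other treatment is named in the labels, nor is the age or strain of the mice. The series text speaks of technical triplicates, yet the sample titles hold 5 different numbers, of which HET replicate 3 and KO replicate 3 share 1. Whether libraries stand for separate animals is not stated, so each p-value measures the spread between these libraries only.

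TGF-beta is secreted in a latent form, held in the matrix and released by integrins and proteases. The active dimer binds the type II receptor, which recruits and phosphorylates the type I receptor, and this kinase phosphorylates Smad2 and Smad3. These join Smad4 in the nucleus and switch on target genes, among them inhibitors of the pathway itself. In fibroblasts the pathway is known for driving contractile and matrix genes. Hic-5, an adaptor protein of focal adhesions, is encoded by Tgfb1i1, a gene named for its induction by TGF-beta.

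Library totals ran from 24954273 to 42470598 estimated counts, and 17584 genes were tested. Levels are given as CPM, the usual unit of a count relative to the (TMM-scaled) total of its library, always in the order of replicates 1 to 3. The targeted gene Tgfb1i1 had 223, 348 and 125 CPM under the HET label and 90.4, 0.232 and 156 CPM under the KO label. It was nearly absent from KO replicate 2, while KO replicate 3 lay within the HET range, and the counts do not separate transcript of a disrupted allele from intact transcript. HET and KO therefore mean the labels of the libraries throughout. Summed over 11 fibroblast markers, the libraries held 9249 to 16331 CPM under HET and 3254 to 7467 CPM under KO, the lowest in KO replicate 2, where 9 of the 11 markers were at their lowest. Col1a2, Thy1 and Dcn stood at 0.491, 0.981 and 0.775 CPM there, but Pdgfra and Pdgfrb at 124 and 138 CPM. Vim, at 2870 CPM, made up most of the sum there and was lower in KO replicate 1, at 2020 CPM. In HET replicate 1 the largest parts of the sum were Col1a1, Col1a2 and Vim, at 4948, 5109 and 4027 CPM. Only Col1a1 and Col1a2, 2 of the 10 tested markers, had every KO library below every HET library, and the others overlapped. Fap was at most 0.455 CPM in any library and at 0 in HET replicate 3. Summed over 11 leukocyte markers, HET replicate 2 and KO replicate 3 held 1425 and 1144 CPM, most of it Lyz2, against 17.2 to 50.5 CPM in the other 4 libraries. The sums over 9 endothelial and 10 pericyte and smooth muscle markers were 1.47 to 13.1 and 38.3 to 391 CPM. In bulk RNA, fewer cells of a type and less RNA per cell cannot be told apart.

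None of the 10 genes passed a test of the difference between the labels. edgeR's quasi-likelihood test called 0 of 10 at an adjusted p under 0.05, as it called 0% of all tested genes. At an unadjusted p under 0.05 it placed 0 of 10 genes, where 4.3% of all tested genes were higher and 4.29% lower in KO. DESeq2 called 0 of 10, against 1.53% of the genes for which it gave an adjusted p, and limma-voom also called 0 of 10. The libraries of the 2 labels overlapped for each of the 10 genes, while 8.09% of all tested genes had every KO library above every HET library and 7.4% had every KO library below. The fitted log2 fold change (KO against HET) was above 0 for 5 genes and below 0 for 5, with a median of -0.12, beside a median of 0.01 over all tested genes.

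**Figure D1:**
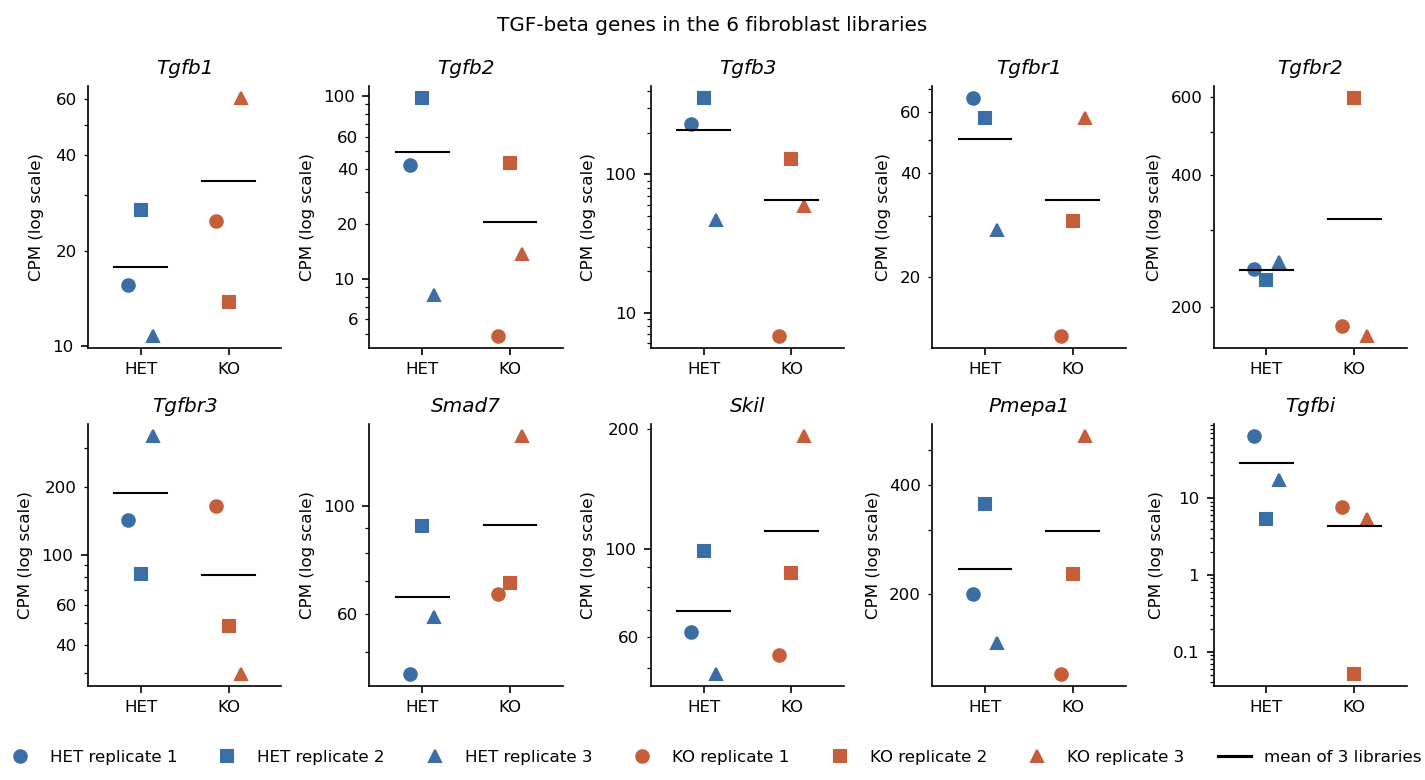
Level of each of the 10 genes in CPM (log axis, a separate scale for each gene) in the 6 libraries, by genotype label. Points are libraries and black lines are means of 3 libraries. The labels overlap in every panel, and Tgfbi in KO replicate 2, at 0.0517 CPM, lies far under the other libraries.

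The ligand genes encode TGF-beta 1, 2 and 3, which bind the same receptor complex. Tgfb1 lies on chromosome 7 (25687002 to 25705077, plus strand), Tgfb2 on chromosome 1 (186622792 to 186705989, minus strand) and Tgfb3 on chromosome 12 (86056745 to 86079041, minus strand), all in GRCm38 with GENCODE M21. The 250 bases before the RefSeq start sites of Tgfb1 and Tgfb2 (GRCm38.p6, from RefSeq) are shown because these ligands had different orders over the libraries. They were read at chr7:25686752-25687001 on the plus strand and chr1:186705990-186706239 on the minus strand, 5′ to 3′. Capitals mark matches on either strand to the GC box GGGCGG, to the Smad-binding sequence CAGAC and to the TATA box TATAAA.
Tgfb1: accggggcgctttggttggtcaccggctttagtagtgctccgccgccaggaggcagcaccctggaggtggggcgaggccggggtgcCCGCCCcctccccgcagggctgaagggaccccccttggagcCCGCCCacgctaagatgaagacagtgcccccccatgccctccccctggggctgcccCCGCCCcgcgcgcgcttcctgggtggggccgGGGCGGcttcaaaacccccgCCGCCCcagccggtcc
Tgfb2: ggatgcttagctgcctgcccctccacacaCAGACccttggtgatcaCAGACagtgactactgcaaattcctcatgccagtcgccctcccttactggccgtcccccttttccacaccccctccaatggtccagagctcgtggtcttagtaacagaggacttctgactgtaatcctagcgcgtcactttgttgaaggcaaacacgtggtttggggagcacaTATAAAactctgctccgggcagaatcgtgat

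The Tgfb1 window held 5 matches to the GC box and 0 to the other motifs, and 75.2% of its bases were G or C. The Tgfb2 window held 2 matches to CAGAC, 1 to the TATA box and 0 to the GC box, at 53.6% G or C. Among 32851 promoter windows of this length, 32.7% held the GC box, 42.2% held CAGAC and 12.4% held TATAAA. The AP-1 site TGACTCA, present in 4.46% of windows, and the cyclic AMP response element TGACGTCA, present in 1.55%, had 0 matches in both. These are descriptions of letters in the window, and no binding was measured. Any link between the letters and the levels over the libraries was not tested. The promoter table had entries for 5 of the 10 genes, namely Tgfb1, Tgfb2, Tgfbr1, Tgfbr2 and Tgfbi.

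Tgfb1 stood at 15.6, 26.9 and 10.8 CPM in HET and at 24.8, 13.8 and 60.7 CPM in KO. KO replicate 3 was high and the other 5 libraries were mixed, with KO replicate 2 between the lower HET libraries. The mean was 17.8 ± 8.29 CPM in HET and 33.1 ± 24.5 CPM in KO (SD, n = 3 each), a log2 fold change of 0.89 ± 0.61 (SE; edgeR adjusted p = 0.659). Without KO replicate 3 the log2 fold change was 0.12.

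Tgfb2 stood at 42.2, 97.8 and 8.20 CPM in HET and at 4.89, 43.0 and 13.7 CPM in KO. HET replicate 3 and KO replicates 1 and 3 were low, so each label held both high and low libraries. The log2 fold change was -1.27 ± 1.04 (SE; edgeR adjusted p = 0.705). Tgfb3 stood at 229, 356 and 46.3 CPM in HET and at 6.82, 129 and 59.1 CPM in KO. Again HET replicate 3 and KO replicates 1 and 3 were the lower libraries, and the highest was 52.3 times the lowest. The means were 210.6 ± 156 CPM in HET and 64.9 ± 61.3 CPM in KO (SD, n = 3 each), with a log2 fold change of -1.70 ± 1.10 (SE; edgeR adjusted p = 0.645). Ttll5 and other genes lie across Tgfb3 on the opposite strand, and how the counting treated strand is not stated, although the library kit marks it. Gm37804, with 163 exon bases in common, held 4.33 to 200.7 estimated counts a library, against 299.7 to 12531 for Tgfb3.

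Transcripts of different genes were compared per length. The authors' deposited RPKM divides by the whole span of a gene, introns included: for 91.4% of well-counted genes in each library, the length implied by the count and the RPKM was proportional to the span in GENCODE M21 within 1%. Levels are therefore also given as CPM on unscaled totals per kilobase of merged exon, a scale chosen after this was seen. Whether intronic reads were counted is not stated. If they were, the exon scale overstates genes that are mostly intron, such as Tgfbr3, whose exons cover 3.58% of its span, and the shares and the order of genes depend on this. On the exon scale Tgfb3 made up 86.7%, 82.6% and 79.4% of the 3 ligands in HET replicates 1 to 3. In KO replicates 1 to 3 its share was 25.9%, 79.0% and 54.8%, so every KO library lay below every HET library, KO replicate 2 by little. On the deposited RPKM the labels overlapped, since Tgfb3 held 81.9% in KO replicate 2 and 74.9% in HET replicate 3. On the exon scale the mean shares of Tgfb3 were 82.9 ± 3.67% in HET and 53.2 ± 26.6% in KO (SD, n = 3 each; two-sided exact permutation p = 0.1, the smallest that 3 against 3 allows, and 0.3 after Benjamini-Hochberg adjustment over the 3 ligands).

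The share of Tgfb1 on the exon scale was 3.97%, 4.19% and 12.4% in HET and 63.3%, 5.67% and 37.8% in KO. KO replicates 1 and 3 were high: Tgfb3 was at its lowest in KO replicate 1, and Tgfb1 at its highest in KO replicate 3. The labels differed by 28.7 percentage points (two-sided exact permutation p = 0.2). On the deposited RPKM the Tgfb1 share differed by 35.8 percentage points and the Tgfb3 share by -35.5 (KO minus HET; two-sided exact permutation p = 0.2 for each). Without KO replicate 1 these were 20.3 and -20.5, and without KO replicate 2 they were 54.4 and -52.7. The share of Tgfb2 was 7.44% to 15.4% over the 6 libraries on the exon scale and 2.67% to 7.31% on the RPKM scale. Its difference between labels was 0.96 percentage points on the former and -0.28 on the latter, both within the spread of the libraries.

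**Figure D2:**
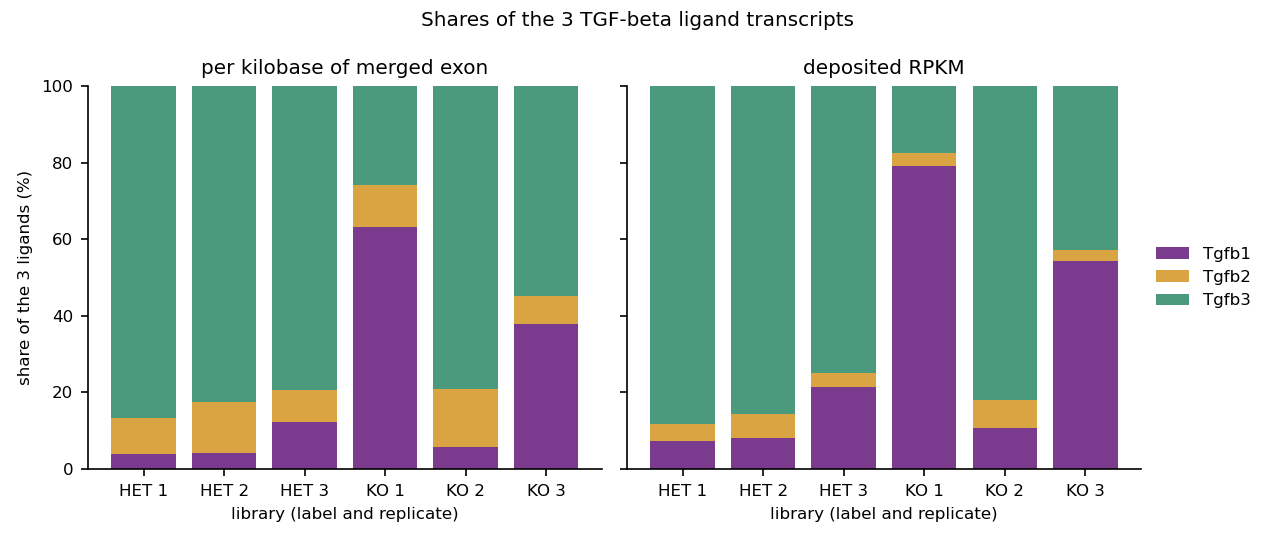
Share of each TGF-beta ligand transcript in the sum of the 3 (percent) for each library, per kilobase of merged exon on the left and on the deposited RPKM on the right. Tgfb3 holds the largest share in the 3 HET libraries and KO replicate 2 on both scales, while Tgfb1 does in KO replicate 1 (63.3% and 79.0%) and, on the RPKM scale only, in KO replicate 3 (54.4%).

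Tgfbr1 encodes the type I receptor kinase (chromosome 4, 47353222 to 47414931, plus strand). It stood at 66.1, 57.7 and 27.3 CPM in HET and at 13.5, 29.2 and 57.8 CPM in KO. KO replicate 1 was the lowest library, and KO replicate 3 lay level with HET replicate 2. The log2 fold change was -0.59 ± 0.58 (SE; edgeR adjusted p = 0.746).

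Tgfbr2 encodes the type II receptor kinase, which binds the ligand (chromosome 9, 116084293 to 116175360, minus strand). Its HET libraries were close together, at 245, 231 and 253 CPM, and its KO libraries were not, at 181, 597 and 173 CPM. KO replicate 2 stood above all HET libraries and KO replicates 1 and 3 stood below them. The means were 243 ± 11.3 CPM in HET and 317 ± 243 CPM in KO (SD, n = 3 each), a log2 fold change of 0.39 ± 0.52 (SE; edgeR adjusted p = 0.821). Without KO replicate 2 the direction turned, to -0.46. In that library the summed fibroblast markers were at their lowest, and Krt8 and Cdh1, an epithelial keratin and the epithelial cadherin, stood at 13.7 and 14.6 CPM. Of 12 epithelial markers, 10 were highest there, and the list sum was 91.3 CPM against 18.1 to 65.9 CPM elsewhere, with 0 of 12 at 0. Outside that library most of the sum was Krt19, which was lowest there, at 0.542 CPM. Their part in the Tgfbr2 level was not tested.

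Tgfbr3 encodes betaglycan, a co-receptor without kinase activity that presents ligand, TGF-beta 2 above all, to the type II receptor (chromosome 5, 107106570 to 107289629, minus strand). It stood at 144, 82.3 and 337 CPM in HET and at 166, 48.7 and 29.8 CPM in KO. HET replicate 3 was high, KO replicates 2 and 3 were low, and KO replicate 1 lay among the HET libraries. The log2 fold change was -1.20 ± 0.79 (SE; edgeR adjusted p = 0.647). Gm43422 shares 297 exon bases with Tgfbr3 on the same strand and held at most 83.4 estimated counts. Within the pair of libraries with the shared title number, KO replicate 3 held 0.0882 times the HET replicate 3 level. In the other 4 libraries the ratio of the means was 0.949, and the log2 fold change without the pair was -0.09.

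On the exon scale Tgfbr2 exceeded Tgfbr1 in 6 of 6 libraries, by 2.38 to 16.3 times. The ratio of Tgfbr2 to Tgfbr3 ran from 0.599 in HET replicate 3 to 9.81 in KO replicate 2. The more abundant of these 2 receptor transcripts thus differed between libraries on this scale only. On the deposited RPKM Tgfbr2 was above Tgfbr3 in every library, with 2.34 against 1.49 in HET replicate 3.

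Smad7, Skil and Pmepa1 are induced by TGF-beta and dampen it. Smad7 is an inhibitory Smad that blocks and degrades the type I receptor, Skil (SnoN) is a nuclear corepressor of the Smads, and Pmepa1 is a membrane protein that keeps Smad2 and Smad3 from the receptor. Smad7 (chromosome 18, 75367529 to 75395935, plus strand) stood at 45.2, 90.7 and 59.2 CPM in HET and at 65.9, 69.5 and 139 CPM in KO. KO replicate 3 was highest and HET replicate 2 came next, while the other 4 libraries were close. The log2 fold change was 0.49 ± 0.40 (SE; edgeR adjusted p = 0.700).

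Skil (chromosome 3, 31095058 to 31122577, plus strand) stood at 61.6, 98.7 and 48.4 CPM in HET and at 54.1, 86.9 and 192 CPM in KO. Pmepa1 (chromosome 2, 173224458 to 173276533, minus strand) stood at 199.6, 355 and 147 CPM in HET and at 120.8, 227 and 545 CPM in KO. Both genes shared the first 2 libraries of Smad7, KO replicate 3 and then HET replicate 2, and both were low in HET replicate 3 and KO replicate 1. The log2 fold changes were 0.68 ± 0.52 for Skil and 0.35 ± 0.61 for Pmepa1 (SE; edgeR adjusted p = 0.682 and 0.866). Without KO replicate 3 they were 0.02 and -0.43, and that of Smad7 was 0.06. Within the pair of the shared title number, KO replicate 3 held 2.35 times the Smad7, 3.97 times the Skil and 3.71 times the Pmepa1 of HET replicate 3. Over the other 4 libraries the ratios of KO to HET means were 0.997, 0.880 and 0.627.

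By the distance used here, the 3 feedback genes lay nearer to each other across libraries than any other pair among the 10 genes. Likeness was measured as the root mean square difference of log2 CPM profiles, each centred on its mean over the 6 libraries, so that 0 is an identical profile. It was 0.22 between Skil and Pmepa1, 0.32 between Smad7 and Skil and 0.44 between Smad7 and Pmepa1, the smallest of 45 pairs. Tgfb1 came next, at 0.46 from Smad7 and 0.47 from Skil. Tgfb2 and Tgfb3 lay 0.68 apart, and the largest distance was 3.46, between Tgfb2 and Tgfbi. The distance was not adjusted for how widely a gene ranged, and genes of small range tend to lie closer on it. The log2 ranges were 1.62, 1.99 and 2.17 for Smad7, Skil and Pmepa1, against 4.30 and 5.69 for Tgfb2 and Tgfb3. With 6 libraries these distances describe the libraries at hand and carry no test.

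**Figure D3:**
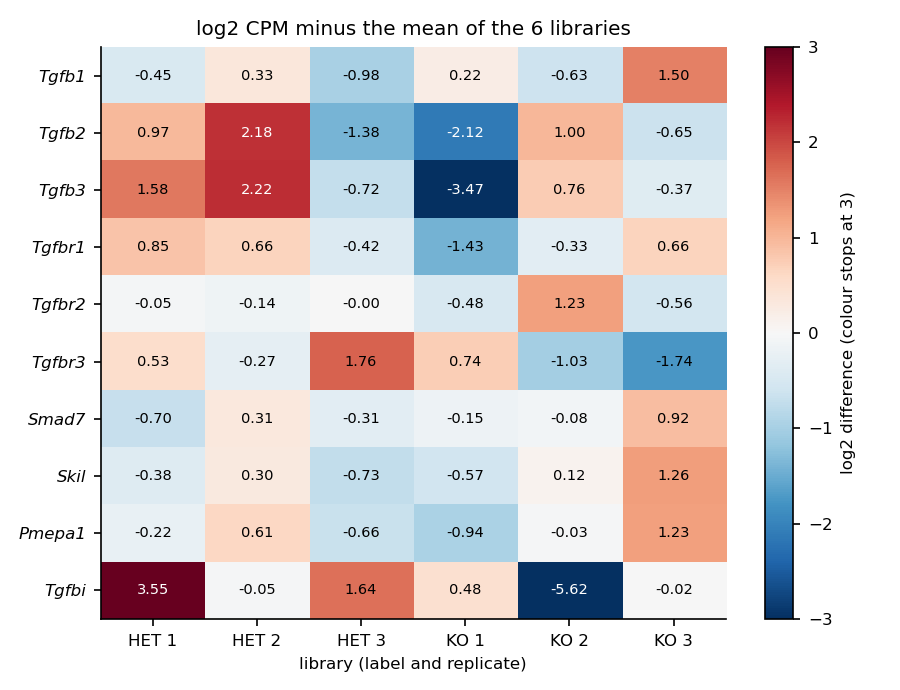
log2 CPM of each gene minus its mean over the 6 libraries, by library, with the value in each cell and colour from blue (low) to red (high), the same beyond 3 in either direction. Smad7, Skil and Pmepa1 all peak in KO replicate 3, with HET replicate 2 next. Their lowest libraries differ: HET replicate 1 for Smad7, HET replicate 3 for Skil and KO replicate 1 for Pmepa1. Tgfb2 and Tgfb3 peak in HET replicate 2, and Tgfbi spans from 3.55 in HET replicate 1 to -5.62 in KO replicate 2.

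Tgfb1, Smad7, Skil and Pmepa1 thus had the same 2 highest libraries, HET replicate 2 and KO replicate 3, an observation made after the values were seen. Of all tested genes, 9.03% had that pair on top. Those also held the most leukocyte marker RNA, and 9 of 11 leukocyte markers had the same 2 on top. Ptprc, the pan-leukocyte gene, stood at 8.19 and 5.67 CPM there and at most 0.0455 CPM elsewhere. Adgre1, a macrophage marker, was at 0 in the other 4 libraries, and Cd3e, a T cell marker, was at 0 in HET replicate 2 and KO replicate 3. Csf1r and Cd14, among the 9, were less confined. Csf1r stood at 20.8 CPM in HET replicate 1 against 24.3 CPM in KO replicate 3. Cd14 stood at 16.1 CPM in KO replicate 1 against 16.7 CPM in HET replicate 2. The part of leukocyte RNA in the levels of the 4 genes was not tested.

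Tgfbi encodes a secreted matrix protein that binds collagen and integrins (chromosome 13, 56609523 to 56639562, plus strand). It stood at 64.7, 5.29 and 17.2 CPM in HET and at 7.67, 0.0517 and 5.39 CPM in KO. KO replicate 2 held 2 estimated counts, under the floor of 3 counts (0.0773 CPM), and HET replicate 2 lay just under KO replicate 3. The means were 29.1 ± 31.4 CPM in HET and 4.37 ± 3.91 CPM in KO (SD, n = 3 each), with a log2 fold change of -2.73 ± 1.51 (SE; edgeR adjusted p = 0.608). Leaving out HET replicate 1 gave -1.35, and leaving out KO replicate 2 gave -2.14. Its range over the 6 libraries was wider than that of 99.5% of tested genes, and the ranges of Tgfb3 and Tgfb2 were wider than those of 95.2% and 90.4%. Its low library was the one with the lowest summed fibroblast markers, 3254 CPM, whose part in the Tgfbi level was not tested.

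**Figure D4:**
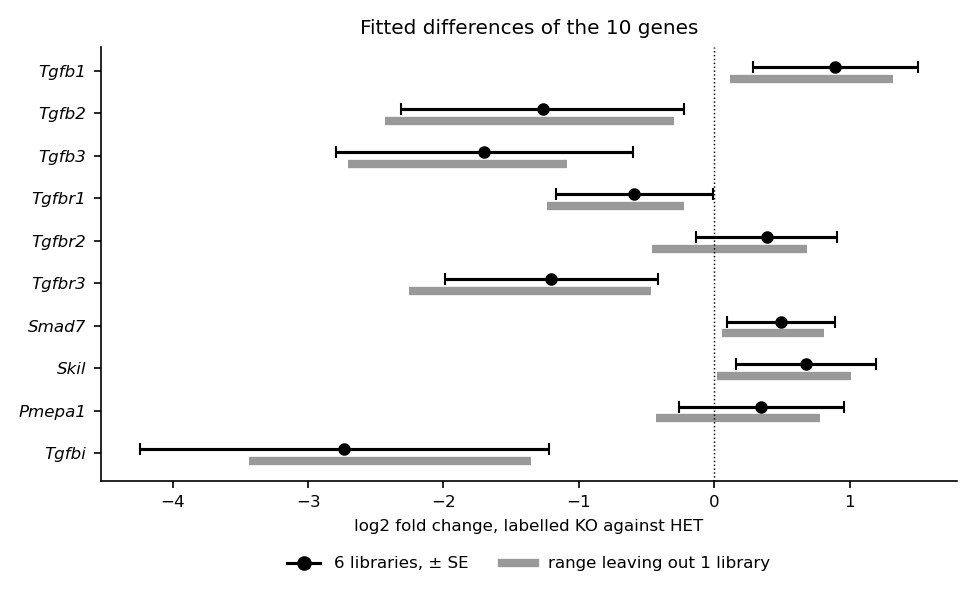
Fitted log2 fold change of each gene, libraries labelled KO against HET, with its standard error (black), and the range of the estimate when each of the 6 libraries was left out in turn (grey bars). The range crosses 0 for Tgfbr2 and Pmepa1, and for Smad7, Skil and Tgfb1 its lower end is 0.06, 0.02 and 0.12.

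By their median over the 6 libraries on the exon scale, the order of the genes from high to low was Pmepa1, Tgfb3, Tgfbr2, Tgfbr3, Smad7, Skil, Tgfbr1, Tgfb2, Tgfb1 and Tgfbi. The medians ran from 44.5 to 1.77 CPM per kilobase of exon. The ranges of each pair of neighbours in this order overlapped. On the exon scale Smad7 exceeded Skil in 6 of 6 libraries and Skil exceeded Tgfbr1 in 5 of 6. There Tgfb3 exceeded Tgfbr2 in 2 of 6, and Tgfbr3 exceeded Smad7 and Tgfb2 exceeded Tgfb1 in 3 of 6. On the deposited RPKM, which penalises genes with long introns, Tgfbr3 had a median of 0.471, below the 2.22 of Skil. On that scale Skil exceeded Smad7 in HET replicates 1 and 2 and KO replicates 2 and 3. In HET replicate 3 and KO replicate 1 Smad7 was the higher. Tgfb1 exceeded Tgfb2 in every library on the RPKM.

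The genes whose profiles lay nearest were sought among 10543 named genes with a mean of at least 5 CPM. For Skil these were Zbtb38 (0.21) and Pmepa1 (0.22), and for Pmepa1 they were Zbtb38 (0.22) and Skil (0.22). Smad7 lay nearest to Ddah1 (0.16) and Klhl21 (0.18), and Tgfb1 to Erc2 (0.32) and Snx24 (0.33). Tgfbr1 lay nearest to Actn1 (0.16) and Eno1b (0.20), Tgfbr2 to Igtp (0.09) and Plekhg5 (0.12), and Tgfbr3 to Xdh (0.35) and Hspa1b (0.44). Tgfb2 (Sp100, 0.60, and Epas1, 0.61), Tgfb3 (Hoxc13, 0.54, and Srpx2, 0.55) and Tgfbi (Mmp2, 0.75, and Vcan, 0.77) were farther from theirs (root mean square difference in log2 over 6 libraries).

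Other genes of the pathway were taken from lists. Of 17 genes of latency and activation, all tested, 9 were higher and 8 lower in KO (median log2 fold change 0.07), and 0 passed edgeR's test at either an adjusted or an unadjusted p. The genes of smallest p were Ltbp4 and Ltbp3, which encode latent TGF-beta binding proteins, Fbn1, the microfibril gene fibrillin 1, and Bmp1, a matrix protease. Ltbp4 stood at 1.31, 1.54 and 11.0 CPM in HET and at 24.4, 11.5 and 8.92 CPM in KO, so that HET replicate 3 lay among the KO libraries. The log2 fold changes of Ltbp4, Ltbp3 and Bmp1 were 1.70 ± 0.93, 0.72 ± 0.47 and -0.85 ± 0.59 (SE). Fbn1 stood at 1446, 705 and 259 CPM in HET and at 15.5, 25.1 and 458 CPM in KO, so that KO replicate 3 lay among the HET libraries.

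Of 9 co-receptors and decoys, 5 were higher and 4 lower, with a median of 0.04 and 0 past either threshold. Eng, the co-receptor endoglin, stood at 138, 169.6 and 13.8 CPM in HET and at 2.64, 2.69 and 93.1 CPM in KO, each label holding high and low libraries. Bambi, a decoy receptor, ranged from 5.07 to 12.5 CPM in HET and from 3.98 to 29.8 CPM in KO. Cd109, a membrane-anchored co-receptor, and Nrp2, a neuropilin, had log2 fold changes of 0.81 ± 0.72 and 0.62 ± 1.08 (SE). Of 13 Smads and signal transducers, 12 were tested, with 6 higher, 6 lower, a median of 0.01 and 0 past either threshold. Smad2 was the 1 gene of this list whose labels did not overlap, with 40.9 ± 4.89 CPM in HET and 51.7 ± 1.55 CPM in KO (SD, n = 3 each; log2 fold change 0.34 ± 0.18 SE, edgeR adjusted p = 0.596). That is 1 of 12 with every KO library above every HET library, near the 8.09% of all tested genes. Smad4, the common partner Smad, had a log2 fold change of -0.26 ± 0.19, Smad3 one of 0.41 ± 0.31 and Map3k7, the kinase TAK1, one of -0.32 ± 0.25 (SE).

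Among 15 other negative regulators, 8 were higher and 7 lower, with a median of 0.03. None passed the adjusted threshold, while 1 higher and 2 lower of the 15 genes had an unadjusted p under 0.05. Over all tested genes the shares were 4.3% and 4.29%. Every KO library lay below every HET library in 2 of the 15 and above in 0, beside 7.4% and 8.09% of all tested genes. Smad6, an inhibitory Smad, stood at 29.4, 91.9 and 54.0 CPM in HET and at 21.9, 22.0 and 15.0 CPM in KO, every KO library below every HET library (log2 fold change -1.57 ± 0.44 SE; edgeR adjusted p = 0.579). Its profile differs from that of Smad7, the other inhibitory Smad, which was highest in KO replicate 3, where Smad6 was lowest. Ppm1a, a phosphatase that acts on Smad2 and Smad3, stood at 147, 152 and 116 CPM in HET and at 71.9, 57.1 and 99.3 CPM in KO, again without overlap (-0.86 ± 0.26 SE; edgeR adjusted p = 0.579). Tgif2, a corepressor, stood at 4.38, 4.09 and 4.48 CPM in HET and at 22.8, 16.8 and 4.48 CPM in KO, where KO replicate 3 was level with the HET libraries. Nedd4l, a ubiquitin ligase, stood at 24.2, 23.4 and 30.1 CPM in HET and at 9.62, 12.1 and 24.3 CPM in KO.

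Of 40 TGF-beta target genes, 39 were tested, 13 higher and 26 lower (median log2 fold change -0.57). Over all tested genes 49.1% were lower in KO, with a median of 0.01. Of 10 tested fibroblast markers 9 were also lower, with a median of -0.95. Col1a1 and Col1a2 stand in both lists and were the only 2 of these markers whose labels did not overlap. The part of fibroblast content in the target genes was not tested. None of the 39 target genes passed edgeR's adjusted threshold, and 1 higher and 4 lower genes had an unadjusted p under 0.05. Over all tested genes the shares were 4.3% and 4.29%. DESeq2 called 3 of them lower (3 of 39, beside 1.53% of all genes with an adjusted p). These were Cdkn2b, Cnn1 and Col3a1, with DESeq2 adjusted p of 0.0040, 0.039 and 0.0061. The edgeR adjusted p on the same 6 libraries was 0.579 for each. Over the 17 alternative fits the highest was 0.975 for each, in edgeR without HET replicate 2, where Tgfb1 and Tgfb3 had it too. Every KO library lay below every HET library in 6 target genes and above in 1 of the 39 tested, beside 7.4% and 8.09% of all tested genes. Cdkn2b, a cyclin-dependent kinase inhibitor, stood at 57.7, 125.6 and 71.5 CPM in HET and at 8.08, 17.2 and 25.6 CPM in KO. Lif, a cytokine of the interleukin 6 family, was the gene above, at 9.53, 24.5 and 18.3 CPM in HET and 48.4, 33.2 and 79.0 CPM in KO (log2 fold change 1.62 ± 0.46 SE; edgeR adjusted p = 0.579). These lists were made with earlier results on these libraries known, so their counts are no independent support.

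The target genes fell into different library patterns. In 9 of 39 (23.1%), Ctgf among them, the 2 highest libraries were HET replicate 2 and KO replicate 3, as in the feedback genes, against 9.03% of all tested genes. In 12 of 39 (30.8%) they were HET replicates 1 and 2, against 8.37% of all tested genes, and these included the collagen and contractile genes Col1a1, Col1a2, Col3a1, Acta2, Tagln and Cnn1. Ctgf, a matricellular growth factor gene, stood at 1653, 5861 and 411 CPM in HET and at 522, 911 and 4900 CPM in KO. It was named after its values were seen, and each label was spread over about the same range.

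**Figure D5:**
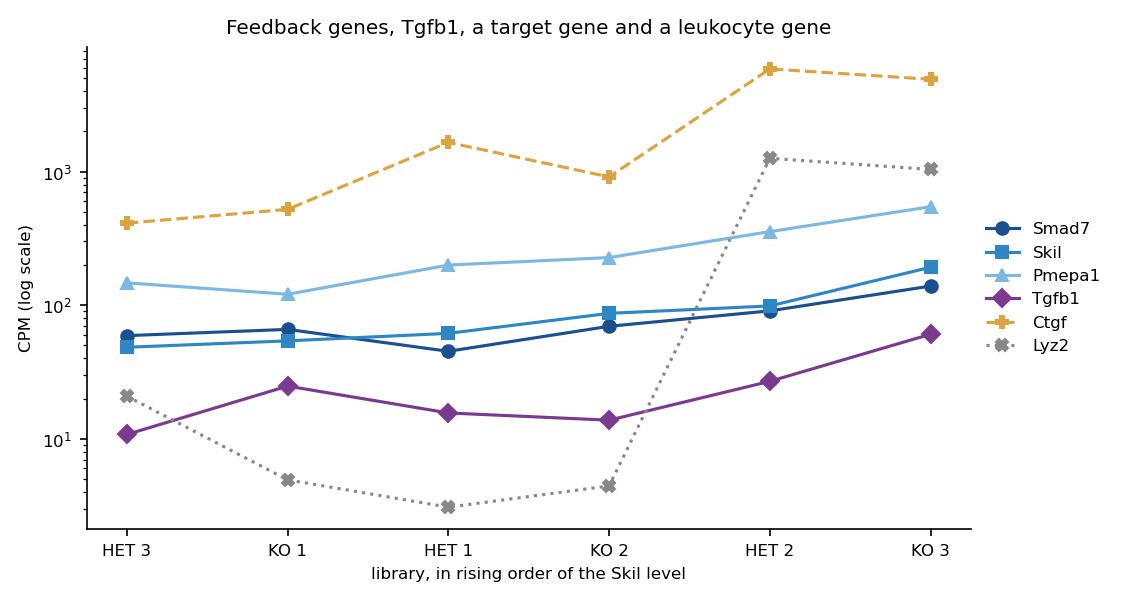
Levels in CPM (log axis) of Smad7, Skil, Pmepa1 and Tgfb1, of the target gene Ctgf and of the leukocyte gene Lyz2 in the 6 libraries, placed in rising order of Skil. Lines only join the points of a gene. The 2 libraries on the right, HET replicate 2 and KO replicate 3, carry different labels, are the highest for each of these genes and hold Lyz2 at 1257 and 1037 CPM.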

How the data were processed

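Stranded total RNA libraries were made after removal of ribosomal RNA, per the labels' protocols. Tools named in the submitters' processing notes are cutadapt 1.2.1, Bowtie2 and Partek, with the build GRCm38. Annotation and counting rules are not given in the sources used here. For each library the authors deposited unscaled estimated counts by gene, and RPKM whose length is the gene span. Of 48408 rows 30 named no gene and were left out, and 7 repeated symbols were summed. Rounded counts were filtered with filterByExpr, scaled by TMM and tested with edgeR 4.0.16 (quasi-likelihood F test, two-sided) across 17584 genes, calling an adjusted p (Benjamini-Hochberg) under 0.05. CPM uses TMM-scaled totals. The SE was derived from F and the log2 fold change. Alternatives included DESeq2 1.42.0 and limma 3.58.1. Profiles used log2 CPM with a prior count of 2. Floors cover counting error only.

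Named genes were the 10 members, Tgfb1i1, up to 4 genes of smallest unadjusted p in each pathway list, marker genes at the ends of their list's range or at 0, and the 2 nearest profiles of each member. Members and lists were chosen with earlier results of these data known. Replicates were numbered in accession order and pair no libraries. The test was checked on simulated data for the KO and HET comparison over 17584 genes. At the dispersion trend it recovered 0%, 28%, 76% and 86% of genes changed by folds of 2, 4, 8 and 16, with 3 unchanged genes called. The spread of single genes was not simulated. These shares need not hold for Tgfbi, Tgfb3 and Tgfb2, whose ranges were wider than those of most tested genes.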

Additional observations from a re-analysis of the deposited data

How the results depend on the processing

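The 10 genes were refitted under 17 alternatives. None passed an adjusted threshold in any of them, and Tgfb2, Tgfb3, Tgfbr1, Tgfbr3 and Tgfbi kept their direction in all 17. When HET replicate 3 and KO replicate 3, which share a title number, were both left out, the log2 fold changes of Tgfb1, Smad7, Skil and Pmepa1 turned to -0.16, -0.029, -0.21 and -0.70, and the median of the latency list was -0.65. Leaving out each library in turn gave -0.46 to 0.69 for Tgfbr2 (negative without KO replicate 2) and -0.43 to 0.78 for Pmepa1 (negative without KO replicate 3). It gave 648 to 2281 genes at an unadjusted p under 0.05, against 1511 (648 without HET replicate 2, 917 without KO replicate 2, 2281 without KO replicate 3). List medians then ran from -0.69 to 0.28 for latency, -0.14 to 0.23 for co-receptors, -0.042 to 0.13 for the Smads, -0.34 to 0.03 for negative regulators and -0.98 to -0.27 for target genes, the last at -1.08 without the pair. The median of the Smad list was 0.16 with library size alone, where the median of all genes was 0.15 and 69.3% of genes at an unadjusted p were higher against 50.0%, and 0.14 on log2(RPKM + 0.1), where 63.4% were higher. DESeq2 called 240 genes against 0. The Tgfb2 share difference turned to 0.96 percentage points per exon length and 0.0183 without that pair, and ran from -1.71 to 0.61 leaving out 1 library. The cause was not tested. Libraries could be paired for the 1 shared title number only. A term for that number left 0 genes called and 1055 at an unadjusted p under 0.05, kept the direction of all 10 genes and moved the latency median to -0.085. Depth was not varied, and Tgfbi in KO replicate 2 lay under the floor of 3 counts.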

Other observations

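Some pathway genes outside the rule for named genes, picked after their values were seen, also differed widely between libraries. Lrrc32, which encodes the cell surface anchor GARP for latent TGF-beta, stood at 774, 1008 and 359 CPM in HET and at 88.5, 1.99 and 935 CPM in KO, with 0.842 as its adjusted p in edgeR. Ltbp1, a latent TGF-beta binding protein gene, stood at 33.9, 64.9 and 350 CPM in HET and at 861, 338 and 72.7 CPM in KO (edgeR adjusted p = 0.681). HET replicate 3 and KO replicate 2 lay side by side, and so did HET replicates 1 and 2 and KO replicate 3. Inhba, which encodes a subunit of activin, a related ligand, stood at 50.2, 211 and 51.8 CPM in HET and at 45.3, 53.4 and 443 CPM in KO. Its 2 highest libraries were those of the feedback genes.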
